A study of Homo sapiens with 6 samples.

Results

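The genes described here encode integrins, laminins, collagens and other proteins of the extracellular matrix and of cell adhesion to it. They were chosen by symbol, as the rows of the study's 2 tables that fit a set of name patterns. These names begin with the stems of the integrin, laminin, collagen, thrombospondin, fibrillin, fibulin, LOXL or CCN families or are TNC, FN1, TGFBI, SPARC, NID1, NID2, HSPG2, AGRN or CD44. The rule itself uses no measured value beyond the threshold of the tables, but the choice was made with earlier results of these data known. Of 7681 genes in the tables, the rule took 46, all typed as mRNA. Of these, ITGB1BP1 encodes a cytoplasmic protein that binds the integrin β1 tail and is no integrin chain. The study sequenced RNA from 6 untreated cultures of HCT116, a human colorectal carcinoma cell line, grown for 48 hours: 3 labelled Rab27B KO, in which RAB27B is stated to be deleted by CRISPR/Cas9, and 3 labelled WT. The labels name no other modification or agent. The labels do not say whether the Rab27B KO cells are 1 clone or a pool. The study is titled for the regulation of autophagy by RAB27B, a small GTPase of secretory vesicles.

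Integrins are receptors made of an α and a β chain that bind matrix outside the cell and the actin or keratin skeleton inside it. Laminins are trimers of α, β and γ chains that, with type IV collagen, nidogens and perlecan, form the basement membrane on which gut epithelium rests. Epithelial cells hold to that sheet through hemidesmosomes, in which integrin α6β4 and the transmembrane collagen XVII connect laminin-332 to keratin filaments. Fibrillar collagens and fibronectin are mostly products of stromal cells, and carcinoma cells can make them too.

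The files give the authors' own comparison of Rab27B KO with WT: for each gene a q-value, all below 0.05, and a log2 fold change. Values per sample were not analysed here. The level of a gene, the depth of a library, the spread between cultures and hence any standard error are unknown. The tables hold differences and not levels, so the colonic identity of the cells could not be checked. RAB27B itself was 36.7-fold higher per the authors' deposited table (log2 fold change 5.20, q listed as 0), which goes against the label. Directions below therefore follow the column headers and say how the samples labelled Rab27B KO stood against those labelled WT. Were the labels or columns exchanged, every sign below would turn, and with it every higher and lower count.

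Of the 46 matrix and adhesion genes, 31 were higher and 15 lower per the authors' deposited table. Among all listed genes 50.7% were higher and 49.3% lower, against 67.4% higher among these members, which would be 32.6% (15 higher, 31 lower) with exchanged labels. The median log2 fold change of the members was 0.46 and that of all listed genes 0.12 per the authors' deposited table. Larger changes did not lean the same way: 15 members had an absolute log2 fold change of at least 1, of which 7 were higher and 8 lower per the authors' deposited table. That is 32.6% of the members, where 12.6% of all listed genes had a change of that size, 6.11% higher and 6.5% lower. The median absolute log2 fold change was 0.80 for the members and 0.41 for all listed genes per the authors' deposited table. A q-value below 0.01 was listed for 39 members (84.8%), where 84.9% of all listed genes had one. Since the members were chosen with earlier results of these data known, these shares are given as a description without a test.

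RefSeq names 114 protein-coding genes that fit the same name patterns, and 49 of them (43%) were in either table by gene ID, where 37.9% of all RefSeq protein-coding genes were. The 3 beyond the 46 are CCN genes printed under older symbols and are described with the CCN family. The other 65, among them ITGAV, ITGB6, TNC, NID1, LAMA5, COL4A1 and COL4A2, were in neither table. For those it is unknown whether they missed the threshold or were not measured.

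**Figure D1:**
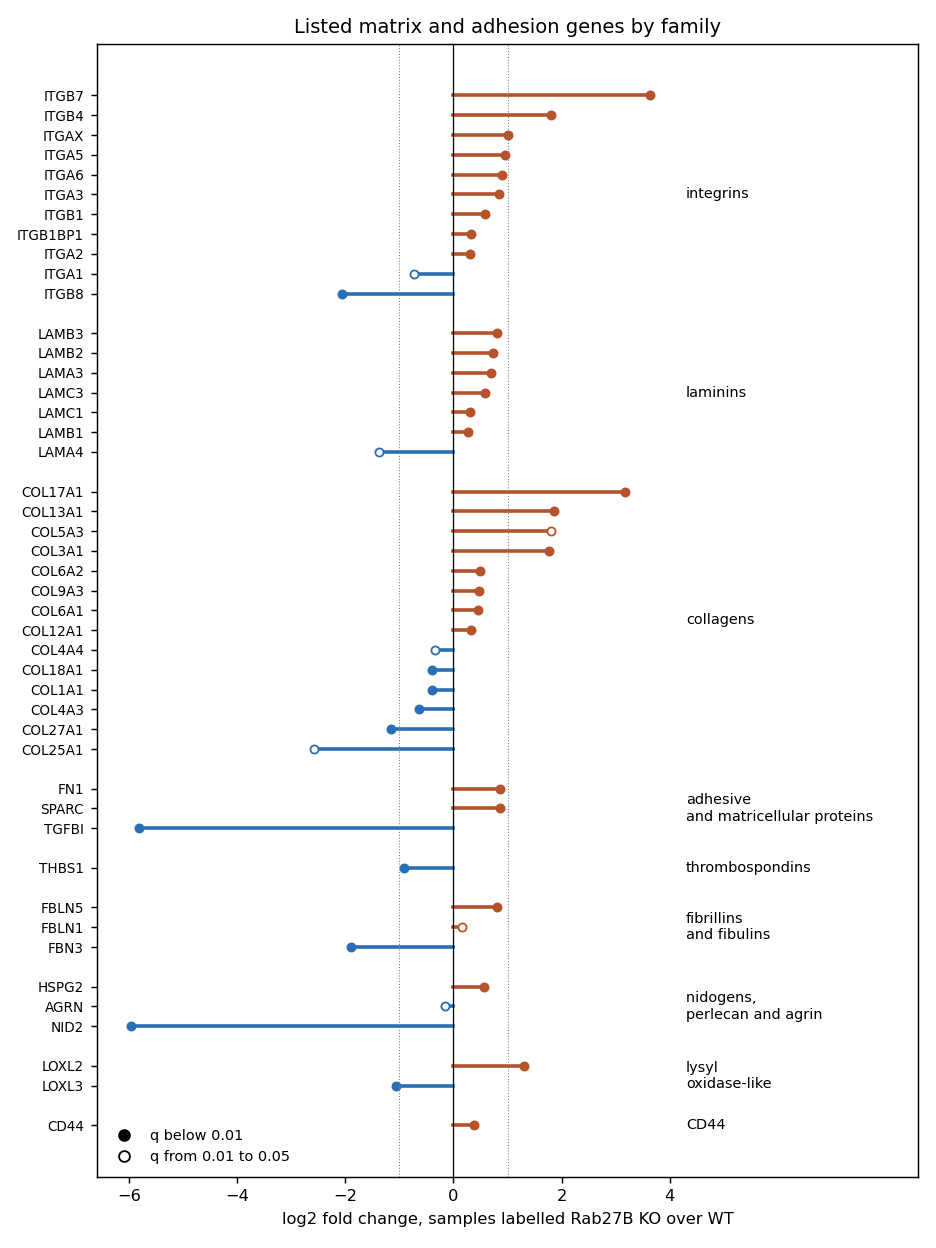
Log2 fold change (samples labelled Rab27B KO over WT, x axis) of 45 of the 46 listed genes per the authors' deposited table, grouped by family; filled points have q below 0.01, open points q from 0.01 to 0.05, and dotted lines mark a change of 1. Integrin points lie mostly to the right of 0 (9 of 11), as do the laminins except LAMA4, collagens lie on both sides (8 higher, 6 lower), and TGFBI and NID2 lie far to the left at -5.82 and -5.96.

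Integrin genes were mostly higher. Of 11 listed, 9 were higher and 2 lower, where 50.7% of all listed genes were higher. Their median log2 fold change was 0.84 per the authors' deposited table. Without ITGB1BP1, which is no chain, 8 of 10 were higher. ITGB4, the β4 chain of the hemidesmosome, was 3.49-fold higher (log2 fold change 1.80) per the authors' deposited table, and it was the only member among the 17 genes whose q-value is listed as 0. Its partner chain ITGA6, which also pairs with β1 as a laminin receptor, was 1.86-fold higher (q = 1.25e-95) per the authors' deposited table. ITGA3, the other main laminin receptor chain of epithelium, was 1.79-fold higher (q = 2.56e-99) per the authors' deposited table. ITGA5, whose dimer with β1 is the classical fibronectin receptor, was 1.94-fold higher (q = 6.34e-92) per the authors' deposited table. The shared β1 chain, ITGB1, was 1.50-fold higher (q = 1.18e-54) and the collagen receptor chain ITGA2 1.23-fold higher (q = 3.40e-09) per the authors' deposited table. The log2 fold changes of these 6 chains ran from 0.30 to 1.80.

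The 2 listed chains typical of leukocytes were higher as well. ITGB7, the β chain of gut-homing and intraepithelial lymphocyte integrins, had the largest change among the higher members, 12.4-fold (log2 fold change 3.64, q = 9.35e-17) per the authors' deposited table. Its known partners ITGA4 and ITGAE were in neither table. ITGAX, the αX chain (CD11c) of myeloid cells, was 2.00-fold higher (q = 5.94e-04) per the authors' deposited table, and its partner ITGB2 was in neither table. Of 10 leukocyte markers 3 were listed, where 37.9% of all RefSeq protein-coding genes were. All 3 were higher, where 50.7% of all listed genes were. They are ITGAX itself, CD68 at 3.51-fold and LYZ at 2.53-fold (q = 0.00111) per the authors' deposited table. PTPRC, the pan-leukocyte marker CD45, was in neither table. The part of other cell types in these values was not tested, and in bulk samples more cells of a type and more RNA per cell cannot be told apart.

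Among the lower integrin genes, ITGB8, which pairs with αV and releases latent TGF-β, was 4.19-fold lower (log2 fold change -2.07, q = 1.27e-34) per the authors' deposited table. ITGA1, a collagen receptor chain, was 1.66-fold lower per the authors' deposited table (q = 0.0292). Hence the 2 listed collagen receptor chains that pair with β1 went opposite ways. Their genes ITGA1 and ITGA2 are neighbours on chromosome 5 with 30142 bases between them in RefSeq. The adaptor gene ITGB1BP1, which restrains β1 activation, was 1.26-fold higher (q = 3.13e-05) per the authors' deposited table.

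Of 24 known integrin dimers, 6 had both chains listed. Integrins α2β1, α3β1, α5β1, α6β1 and α6β4 had both chains higher, and α1β1 had a lower α and a higher β chain per the authors' deposited table. The 4 dimers with β1 and both chains higher share the ITGB1 value, so they are not separate observations. A further 11 dimers had 1 chain listed and 7 had none.

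**Figure D2:**
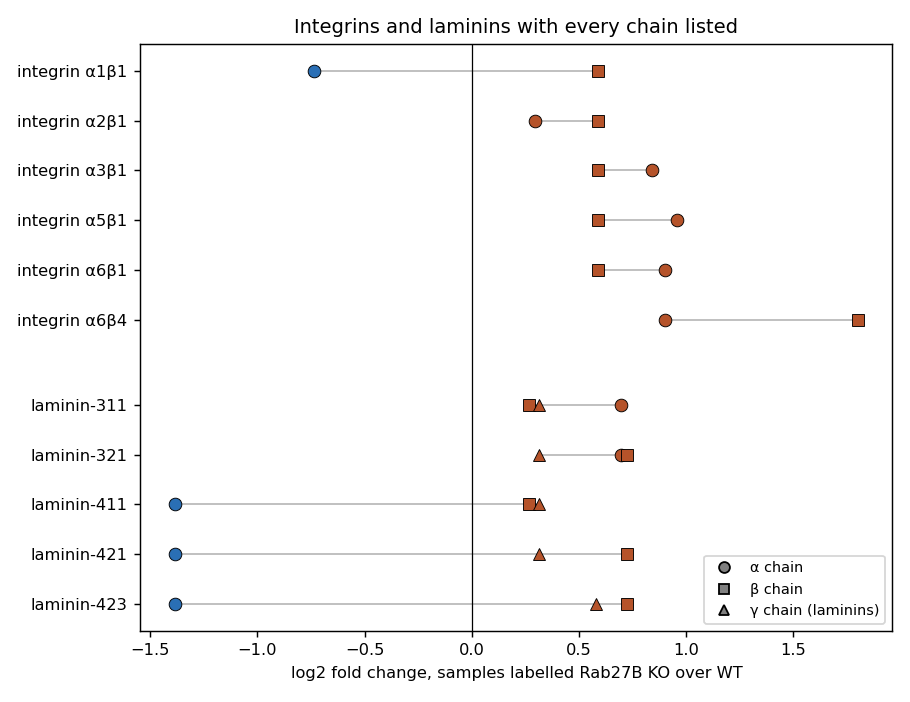
Log2 fold change of each chain (x axis, samples labelled Rab27B KO over WT, from the authors' deposited table) for 11 integrins and laminins that had every chain listed; circles are α, squares β and triangles γ chains, and lines join the chains of a complex. All chains lie to the right of 0 in 5 integrins and 2 laminins, and the α chains ITGA1 and LAMA4 lie to the left of 0.

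Laminin genes moved together except for 1 chain. Of 8 listed, 7 were higher, each by less than 2-fold, where 50.7% of all listed genes were higher. The median of the 8 was 0.64 on the log2 scale per the authors' deposited table. LAMB3 and LAMA3, which encode the β and α chains of laminin-332, the anchoring laminin of epithelium, had close values: LAMB3 was 1.75-fold higher (q = 2.09e-31) and LAMA3 1.62-fold higher (q = 5.14e-05) per the authors' deposited table. LAMB2, a β chain of mature basement membranes, was 1.65-fold higher (q = 1.86e-11) and LAMC3, a γ chain, 1.49-fold higher (q = 5.62e-11) per the authors' deposited table. The widely used chains LAMB1 and LAMC1 were higher by less, 1.20-fold and 1.24-fold per the authors' deposited table. LAMA4, an α chain of endothelial and muscle basement membranes, was 2.61-fold lower per the authors' deposited table (q = 0.0265). Of 10 endothelial markers 1 was listed, where 37.9% of all RefSeq protein-coding genes were. It is ROBO4, which was 48.8-fold higher (q = 4.13e-04) per the authors' deposited table, while PECAM1 and CDH5 were in neither. Of 13 laminin trimers considered, 5 had every chain listed: the 2 with LAMA3 had all chains higher and the 3 with LAMA4 had a lower α chain beside higher β and γ chains.

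AP-1 sites have been described in promoters of laminin-332 genes, so the 7-base AP-1 motif TGANTCA, where N is any base and which reads the same on both strands, was searched in the 250 bases before each RefSeq start (build GRCh38.p14). Promoter windows were at hand for 35 of the 46 members, in 44 windows. The motif was found in 2 of these 35 genes (5.71%), LAMA3 and LAMB3, where 8.06% of 27305 genes with a window held it, so its share among the members was no higher than in general. A match is a description of the letters and not of binding. The 2 windows are printed because their genes encode chains of the same trimer and moved by like amounts; capitals mark the motif, and both run 5′ to 3′ on the strand of the gene. The LAMA3 window is chr18:23872770-23873019 on the plus strand and precedes an internal start 184 kb downstream of the start of the gene. The LAMB3 window, 1 of 3 for that gene, is chr1:209651375-209651624 on the minus strand and also precedes an internal start. It was picked because it holds the motif, which the other LAMB3 windows do not.
LAMA3: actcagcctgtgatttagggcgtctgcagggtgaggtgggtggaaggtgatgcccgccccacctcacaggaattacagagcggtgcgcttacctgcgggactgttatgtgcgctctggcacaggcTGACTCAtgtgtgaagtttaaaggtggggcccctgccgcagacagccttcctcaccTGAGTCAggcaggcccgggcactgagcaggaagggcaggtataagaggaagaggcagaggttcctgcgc
LAMB3: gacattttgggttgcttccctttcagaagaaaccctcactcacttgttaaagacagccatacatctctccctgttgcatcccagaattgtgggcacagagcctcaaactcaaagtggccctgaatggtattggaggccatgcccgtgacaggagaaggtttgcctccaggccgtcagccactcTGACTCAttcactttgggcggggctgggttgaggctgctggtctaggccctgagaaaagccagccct
In LAMA3 the motif began 125 and 69 bases before the start, and in LAMB3 it began 67 bases before it.

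Collagen genes went both ways, 8 of 14 higher and 6 lower, where 50.7% of all listed genes were higher. Their log2 fold changes ran from -2.57 to 3.18 with a median of 0.38 per the authors' deposited table. The transmembrane collagens were among the largest changes. COL17A1, the hemidesmosomal collagen XVII (BP180), was 9.05-fold higher (log2 fold change 3.18, q = 3.31e-152) per the authors' deposited table. COL13A1, another transmembrane collagen, of cell adhesion sites, was 3.61-fold higher (q = 5.15e-57) per the authors' deposited table. COL25A1, a transmembrane collagen best known from neurons, was 5.94-fold lower per the authors' deposited table (q = 0.0218).

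Fibrillar collagens showed no shared direction. COL3A1, a stromal fibrillar collagen, was 3.41-fold higher (q = 6.57e-09) and COL5A3, a minor fibril chain, 3.48-fold higher (q = 0.0406) per the authors' deposited table. COL5A3 has the largest q-value of the members, the nearest to the threshold of the tables. COL1A1, the main chain of type I collagen, was 1.32-fold lower (q = 2.59e-05) and COL27A1, a fibrillar collagen of cartilage, 2.23-fold lower (q = 2.01e-24) per the authors' deposited table. COL1A2, COL5A1 and COL5A2, which join these chains in trimers, were in neither table. Of 14 fibroblast and pericyte markers 5 were listed, where 37.9% of all RefSeq protein-coding genes were. Of the 5, 3 were higher and 2 lower, where 50.7% of all listed genes were higher. Their log2 fold changes ran from -0.49 to 1.77 per the authors' deposited table. COL3A1, COL1A1 and FBLN1 among the 5 are members, and PDGFRA, PDGFRB, DCN and LUM were in neither table.

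The remaining collagens changed by less than 2-fold. COL6A1 and COL6A2, chains of the microfibrillar type VI collagen, lie beside each other on chromosome 21 and were 1.37-fold (q = 5.57e-23) and 1.41-fold higher (q = 4.91e-19) per the authors' deposited table, while the remaining chain COL6A3 was in neither table. COL9A3, of fibril-associated type IX collagen, was 1.39-fold higher and COL12A1, which coats fibrils, 1.24-fold higher per the authors' deposited table. COL18A1, the basement membrane collagen that holds endostatin, was 1.31-fold lower (q = 7.20e-13) per the authors' deposited table.

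The type IV chains COL4A3 and COL4A4, which form a basement membrane network with COL4A5, were 1.56-fold lower (q = 0.0059) and 1.27-fold lower (q = 0.016) per the authors' deposited table. They lie head to head on chromosome 2, with 135 bases between the genes in RefSeq. The COL4A4 start used here is internal to that gene, and it lies 418 bases from the COL4A3 start. The 250-base windows before these starts overlap by 82 bases. The COL4A4 window, with all the shared bases, lies inside the COL4A4 gene and not between the genes. The windows are printed because these neighbours, transcribed away from each other, moved the same way; capitals mark the shared 82 bases, which in each are the reverse complement of those in the other. The COL4A3 window is chr2:227164374-227164623 on the plus strand and the COL4A4 window chr2:227164206-227164455 on the minus strand, both in build GRCh38.p14.
COL4A3: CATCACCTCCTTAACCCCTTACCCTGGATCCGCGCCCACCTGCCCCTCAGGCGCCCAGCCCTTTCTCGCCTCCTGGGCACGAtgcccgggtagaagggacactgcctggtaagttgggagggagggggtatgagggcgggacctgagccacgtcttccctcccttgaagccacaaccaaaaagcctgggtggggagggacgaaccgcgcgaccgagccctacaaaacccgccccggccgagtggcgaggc
COL4A4: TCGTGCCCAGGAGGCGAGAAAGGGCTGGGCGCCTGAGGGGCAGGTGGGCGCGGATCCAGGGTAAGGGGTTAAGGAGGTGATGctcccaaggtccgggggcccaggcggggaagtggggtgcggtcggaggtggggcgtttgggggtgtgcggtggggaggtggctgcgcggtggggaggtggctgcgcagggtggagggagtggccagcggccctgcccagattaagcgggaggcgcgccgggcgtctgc
Their GC content is 66.4% for COL4A3 and 72.8% for COL4A4. Close neighbours did not always move together: of 4 pairs of members that start within 250 kb of each other, 2 shared a direction (COL4A3 with COL4A4 and COL6A1 with COL6A2) and 2 did not (ITGA1 with ITGA2, COL1A1 with ITGA3).

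The 2 members with the largest absolute changes, an adhesive protein and a basement membrane linker, were lower; with exchanged labels they would be higher by the same folds. NID2, nidogen-2, which bridges laminin and type IV collagen, was 62.4-fold lower (log2 fold change -5.96, q = 3.02e-05) per the authors' deposited table. TGFBI, a secreted TGF-β-induced protein that binds collagens and integrins, was 56.6-fold lower (log2 fold change -5.82, q = 2.49e-10) per the authors' deposited table. By size of change they ranked 16 and 18 among the 3783 lower genes. How few reads of them the samples labelled Rab27B KO held is unknown. FBN3, a fibrillin of fetal tissue, was 3.71-fold lower (q = 2.67e-27) and THBS1, the matricellular thrombospondin-1, 1.89-fold lower (q = 1.43e-12) per the authors' deposited table. AGRN, agrin, was 1.11-fold lower (q = 0.0354) per the authors' deposited table, the smallest change of all members.

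Other secreted matrix proteins were higher by less than 2-fold. FN1, fibronectin, was 1.82-fold higher (q = 1.97e-55) per the authors' deposited table. SPARC, a collagen-binding matricellular protein, was 1.81-fold higher (q = 6.70e-09) and HSPG2, the basement membrane proteoglycan perlecan, 1.48-fold higher (q = 6.33e-19) per the authors' deposited table. FBLN5, an elastic fibre organiser, was 1.74-fold higher (q = 1.04e-08) and FBLN1, a basement membrane fibulin, 1.11-fold higher (q = 0.013) per the authors' deposited table. CD44, the hyaluronan receptor, was 1.29-fold higher (q = 3.99e-39) per the authors' deposited table. Thus FN1 and its receptor chains ITGA5 and ITGB1 were each higher, by 1.50-fold to 1.94-fold.

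The 2 listed lysyl oxidase-like enzymes, which crosslink collagen, went opposite ways. LOXL2 was 2.47-fold higher (q = 2.69e-100) and LOXL3 2.09-fold lower (q = 8.09e-09) per the authors' deposited table. No gene was listed under a CCN symbol. By gene ID, 3 of the 6 CCN genes were in the tables under older names and all 3 were higher: CCN2 (printed as CTGF) 2.22-fold (q = 1.55e-07), CCN1 (CYR61) 1.55-fold (q = 2.71e-09) and CCN3 (NOV) 1.30-fold (q = 0.0064) per the authors' deposited table.

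**Figure D3:**
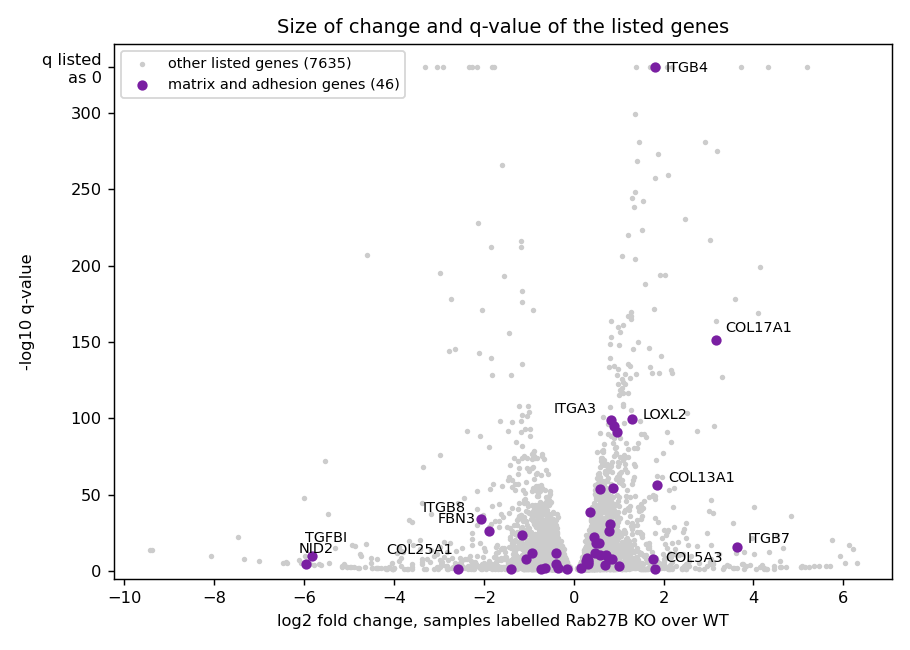
Log2 fold change (x axis, samples labelled Rab27B KO over WT) against -log10 of the q-value (y axis) for the 46 matrix and adhesion genes and the 7635 other listed genes of the authors' deposited table, with q-values listed as 0 drawn on the top line. ITGB4 lies on that line and COL17A1 at a q-value of 3.31e-152, while NID2, TGFBI, COL25A1 and COL5A3 combine large changes with larger q-values.

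Genes that act with these members were counted from lists written with earlier results of these data known, and each count stands against the 50.7% of all listed genes that were higher and the 37.9% of protein-coding genes that were listed. Of 11 hemidesmosome genes 10 were higher and none lower, DST being in neither table; 6 of the 10 are members of the families above. The others per the authors' deposited table were PLEC, the plectin linker to keratin, at a log2 fold change of 0.43, CD151, the tetraspanin partner of laminin-binding integrins, at 0.23, and the basal keratin genes KRT5 at 2.27 and KRT14 at 5.94. Of 9 basal and squamous epithelial markers 6 were listed, all higher, with a median log2 fold change of 4.09 per the authors' deposited table. KRT5 and KRT14 are among these 6 as well, so these lists are not separate observations. Of 12 colonic epithelial markers 7 were listed, 4 higher and 3 lower. EPCAM, CDH1 and CDX2 were 2.23-fold, 2.22-fold and 1.68-fold lower per the authors' deposited table. KRT20, KRT8, KRT19 and KRT18 were 4.23-fold, 1.53-fold, 1.43-fold and 1.39-fold higher per the authors' deposited table. The part of these markers in the hemidesmosome values was not tested.

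Of 31 collagen processing genes 20 were listed, 16 higher and 4 lower, where 50.7% of all listed genes were higher. P4HA1, a prolyl hydroxylase subunit, was 2.68-fold higher (q = 7.55e-151) per the authors' deposited table. Its partner subunit P4HB was 1.72-fold, the lysyl hydroxylase gene PLOD1 1.85-fold, the prolyl 3-hydroxylase partner CRTAP 1.78-fold and the prolyl 3-hydroxylase gene P3H2 3.10-fold higher per the authors' deposited table. PXDN, peroxidasin, which crosslinks type IV collagen, was 3.68-fold lower (q = 3.42e-82) per the authors' deposited table. On the log2 scale the 20 had a median of 0.73 per the authors' deposited table.

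Of 40 genes of the integrin adhesion machinery 28 were listed, 19 higher and 9 lower, none by a log2 fold change of 1 or more. Among the 28 are the member ITGB1BP1 and CD151, which is counted with the hemidesmosome genes too. TNS4 (cten), a tensin that binds β1 tails, was 1.78-fold higher and its relative TNS3 2.00-fold lower per the authors' deposited table. VCL (vinculin) and ACTN4 (α-actinin-4), which connect adhesions to actin, were 1.42-fold and 1.37-fold higher, and the tetraspanin gene TSPAN4 1.78-fold higher per the authors' deposited table. The kinase genes PTK2 (focal adhesion kinase) and SRC, chosen after their values were seen, had log2 fold changes of -0.18 each per the authors' deposited table. Other matrix receptors were higher in 12 of 14 listed cases out of 20. That list also holds LGALS1 and LGALS3, which encode galectins and not receptors, and CD47, which is in the adhesion list too. All of these were higher. PLAUR, the urokinase receptor, was 4.20-fold, LGALS1 (galectin-1) 2.32-fold, CSPG4 (NG2) 2.30-fold and the glypican gene GPC1 1.60-fold higher per the authors' deposited table.

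Of 49 matrix genes outside the name patterns 15 were listed, 6 higher and 9 lower. LTBP3, which holds latent TGF-β, was 2.71-fold lower (q = 2.38e-156) and MFAP2, of microfibrils, 1.37-fold lower per the authors' deposited table. VCAN (versican) was 2.37-fold higher (q = 4.39e-135) and ECM1 8.72-fold higher (q = 2.07e-95) per the authors' deposited table. The largest changes had larger q-values: VWA2 was 28.0-fold lower (q = 0.00462) and VTN (vitronectin) 19.8-fold higher (q = 0.0287) per the authors' deposited table. Of 22 YAP and TEAD target genes, among them CCN1 and CCN2, 16 were listed, 11 higher and 5 lower. CCDC80 was 5.05-fold, MYOF 1.42-fold, NT5E 1.65-fold and GADD45A 1.66-fold higher, and FJX1 2.11-fold and TGFB2 2.27-fold lower per the authors' deposited table.

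**Figure D4:**
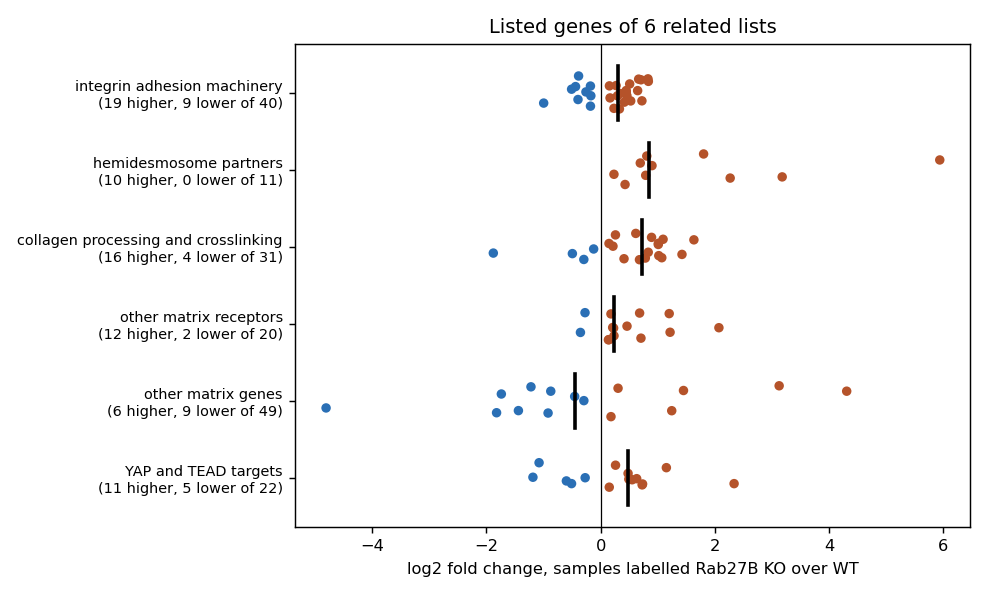
Log2 fold change (x axis, samples labelled Rab27B KO over WT) of every listed gene in 6 related lists, from the authors' deposited table; each point is a gene, black bars are medians over the listed genes, and vertical scatter within a list carries no meaning. All 10 hemidesmosome points lie to the right of 0, the collagen processing list has a median of 0.73, and the other matrix genes have a median of -0.45. CD151 is drawn in both the adhesion and hemidesmosome lists, and CD47 in both the adhesion and matrix receptor lists.

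Transcript length and chromosome, neither of which the name rule used, differed between higher and lower listed genes. The longest protein-coding transcript in GENCODE release 29 had a median length of 5710 bases for the members and 3519 bases for all listed genes with a length. Among the longest of 3 equal classes, above 4623 bases, 33.8% of all listed genes were higher, while 19 of 32 members (59.4%) were. In the middle class 49.5% of listed genes and 10 of 12 members were higher. Members that were lower had a median length of 7775 bases and members that were higher one of 5147 bases. On chromosomes 4, 7, 13 and 15, where 22.9% of listed genes were higher, 1 of 4 members was higher (LAMB1) and 3 were lower (COL25A1, ITGB8 and THBS1). On the other chromosomes 30 of 42 members were higher, with 55.4% of listed genes. The 4 chromosomes were set apart for their low shares of higher genes, so the gap between 22.9% and 55.4% follows from that choice. Chromosome 21, with 36.2% of listed genes higher, was left among the others, though chromosome 7 had 33%. It holds 3 members, 2 higher and 1 lower. The part of length and chromosome in each value was not tested. For 8 members, CD44, ITGA2, ITGA6, ITGB8, LAMA4, LAMC1, LOXL2 and COL18A1, RefSeq annotates an antisense gene, and the sources used here do not give whether counting used strand, so reads from the partners cannot be told apart.

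**Figure D5:**
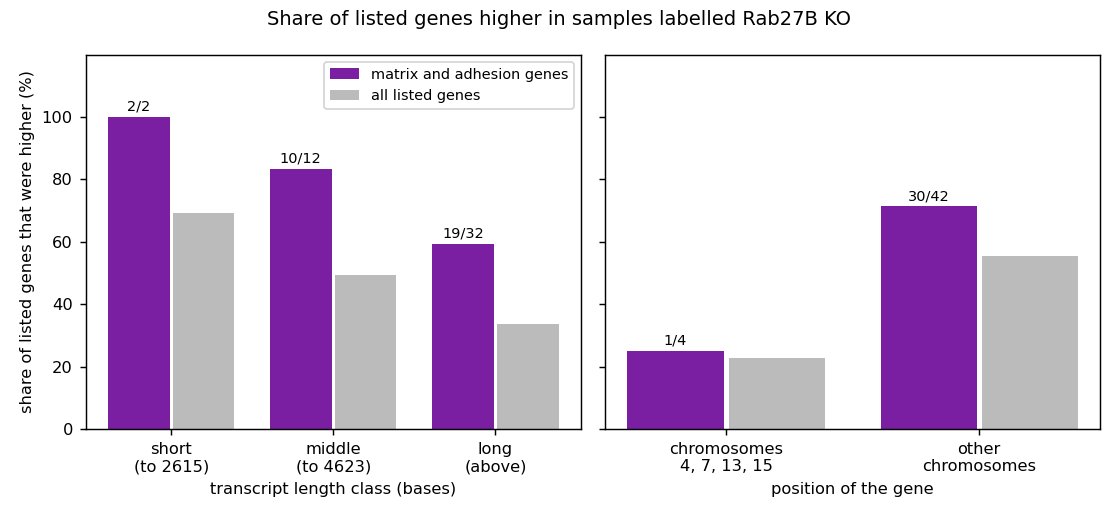
Share of listed genes that were higher in the samples labelled Rab27B KO (y axis, percent), for the matrix and adhesion genes and for all listed genes, by class of transcript length (left) and by chromosome (right); numbers over bars are members higher over members listed. In the longest class the members stand at 59.4% and all listed genes at 33.8%, and on chromosomes 4, 7, 13 and 15 at 25% and 22.9%.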

How the data were processed

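RNA from 6 HCT116 cultures, 3 labelled Rab27B KO and 3 labelled WT, was sequenced; groups came from the sample titles. The submitters' processing notes name HISAT, Bowtie2 and GRCh38, without roles. How reads were counted, scaled and tested is not stated in what was used here. Per the file headers, the deposited tables hold the log2 fold change of Rab27B KO over WT, the authors' q-value and, for higher genes, the linear ratio. Values per sample were not analysed here, so depth and precision are unknown and the planned count tests could not be run. A gene was called by the authors' q-value below 0.05 alone. Folds of lower genes were computed from the log2 value. Of 7681 gene IDs, 7656 matched RefSeq (GRCh38.p14), including all 46 members; coordinates are 1-based. The members and lists were chosen with earlier results of these data known. Named were members with an absolute log2 fold change of at least 1, the 4 smallest q-values of larger families, all members of smaller ones, and in each pathway list up to 4 genes by q-value and 2 by size; further members were added to describe 45 of the 46. 1 member is counted but not reported here. Alternatives were matching by gene ID, a q-value below 0.01, an absolute log2 fold change of at least 1, leaving out 4 chromosomes, and leaving out ITGB1BP1. Python 3.11.15, pandas 2.3.3 and matplotlib 3.10.9 were used.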

Additional observations from a re-analysis of the deposited data

How the results depend on the processing

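Of the 46 genes, 31 were higher and 15 lower. The lean towards higher genes was kept at a q-value below 0.01 (29 higher and 10 lower). It was also kept with members matched by gene ID (34 and 15) and without ITGB1BP1 (30 and 15). Without chromosomes 4, 7, 13 and 15 the counts were 30 and 12. On those chromosomes 22.9% of listed genes were higher, and elsewhere 55.4% were. Leaving them out thus raises the share of higher genes in general, and that setting is no check of the lean. At a q-value below 0.01, 84.8% of the members remained, against 84.9% of all listed genes. At an absolute log2 fold change of at least 1 the lean was lost, with 7 higher and 8 lower. There the median reversed to -1.06, since large falls outnumber large rises by 1 gene. ITGAX, at a log2 fold change of 0.99978, fell just short of that cut, so the reversal depends on where the cut lies. The median log2 fold change was 0.56 at a q-value below 0.01, 0.53 without the 4 chromosomes, and 0.48 both by gene ID and without ITGB1BP1, against 0.46 as reported. The 7 members with q-values from 0.01 to 0.05 were COL5A3, AGRN, ITGA1, LAMA4, COL25A1, COL4A4 and FBLN1. No paired analysis was possible because the columns hold no values per sample, and for the same reason no replicate could be left out and no other normalization, filter or pseudocount was run. The depth behind each fold change is unknown.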

Other observations

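Genes around some members had directions of their own per the authors' deposited table. All 11 listed genes starting within 1 Mb of THBS1 on chromosome 15 were lower, as THBS1 was, with a median log2 fold change of -0.42, on a chromosome where 19.8% of 257 listed genes were higher. CD44 was higher while all 6 listed neighbours on chromosome 11 were lower, with a median of -0.93, and LAMB3 was higher while all 3 listed neighbours on chromosome 1 were lower, with a median of -2.06. Of 25 listed genes around ITGB7 on chromosome 12, 20 were higher, with a median of 0.46, against 3.64 for ITGB7. NID2 was lower while 3 of its 4 listed neighbours on chromosome 14 were higher, with a median of 0.45. These loci were chosen after their values were seen, and no test was made.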
